A study of Mus musculus with 4 samples.

Results

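*Casr*, *Olfr78* and *Gpr4* encode 3 G-protein-coupled receptors for chemical signals, and their transcripts were followed through the nuclei of the posterior hindbrain, the region with the area postrema (AP) and the nucleus of the solitary tract (NTS). They were chosen by name among the 32285 genes counted, and their levels were read in the 134 neuronal clusters and 14 cell types of the deposited annotation. Single nuclei were sequenced in 4 libraries, and the groups, control and AgRP-Gq;POMC-Gi, gave 2 libraries each. All mice, of both sexes and 12 to 20 weeks old, had received clozapine N-oxide (CNO) at 3 mg per kg and were killed 1 h later without access to food. The comparison of the groups asks how the hindbrain responds to AgRP neurons being switched on and POMC neurons off together.

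AgRP-Gq;POMC-Gi mice were AgRP-IRES-Cre+/- and POMC-Dre+/-, with 1 allele each of hM3DGq and hM4DGi. Cre switches on the activating receptor hM3DGq in AgRP neurons, and Dre the inhibiting receptor hM4DGi in POMC neurons. AgRP neurons lie in the hypothalamus, and POMC neurons there and, in smaller numbers, in the NTS. Control mice are labelled WT, and by the methods of the study they lacked both recombinases but carried the same 2 silent receptor alleles. Tissue of a condition was pooled from 2 mice. The sources do not say which mice entered which library. The p-values below thus measure the spread between libraries, of which an unknown part may be technical.

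The calcium-sensing receptor *Casr* sets the release of parathyroid hormone by the level of extracellular calcium and also responds to amino acids and other ligands. *Olfr78* is an olfactory receptor found outside the nose, in vascular smooth muscle and in the glomus cells of the carotid body, and it responds to short-chain fatty acids such as acetate and propionate. *Gpr4* is a proton sensor that couples to cyclic AMP, is best known from the vascular endothelium, and is required in neurons of the retrotrapezoid nucleus for the breathing response to carbon dioxide. The area postrema has capillaries without a tight blood-brain barrier, so that its neurons meet substances in the blood directly.

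The 4 libraries held 9723 to 10051 kept nuclei with medians of 3211 to 3502 unique molecular identifiers (UMIs), each standing for 1 captured transcript. Neurons were 12539 of the 39461 nuclei, making 25.4% and 27.2% of control nuclei but 38.0% and 36.5% of AgRP-Gq;POMC-Gi nuclei. AgRP-Gq;POMC-Gi replicate 2 stood apart from the others in *Xist*, a transcript of female cells, with 16.2 CPM in neurons against 319 to 541 CPM. The 2 AgRP-Gq;POMC-Gi libraries thus did not hold the same mix of sexes. The part of sex in the differences below was not tested. Choroid plexus nuclei numbered 2, 436, 6 and 329 in the 4 libraries, control first, and their gene *Ttr* stood at 1.49, 1003, 7.53 and 580 CPM in neurons, high in replicate 2 of both groups. Between 19 and 36 barcodes were shared by any 2 libraries. CPM are the UMIs of a gene per 1000000 UMIs of the same nuclei, and means carry the SD over all 4 libraries. Values by library are listed with the control libraries first, replicate 1 then 2, and the AgRP-Gq;POMC-Gi libraries after them in the same way.

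All 3 transcripts were rare, but they were spread in different ways. *Casr* had 192 UMIs in 85 nuclei, of which 172 (89.6%) lay in neurons. *Olfr78* had 188 UMIs in 109 nuclei, of which 166 (88.3%) lay in neurons. *Gpr4* had 321 UMIs in 306 nuclei, of which 123 (38.3%) lay in neurons. *Casr* reached 12 UMIs in a nucleus and *Olfr78* reached 8, whereas no nucleus had more than 2 UMIs of *Gpr4*. Most nuclei with a transcript had only 1 UMI of it, and 38 of 85 nuclei with *Casr*, 36 of 109 with *Olfr78* and 15 of 306 with *Gpr4* had at least 2.

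**Figure D1:**
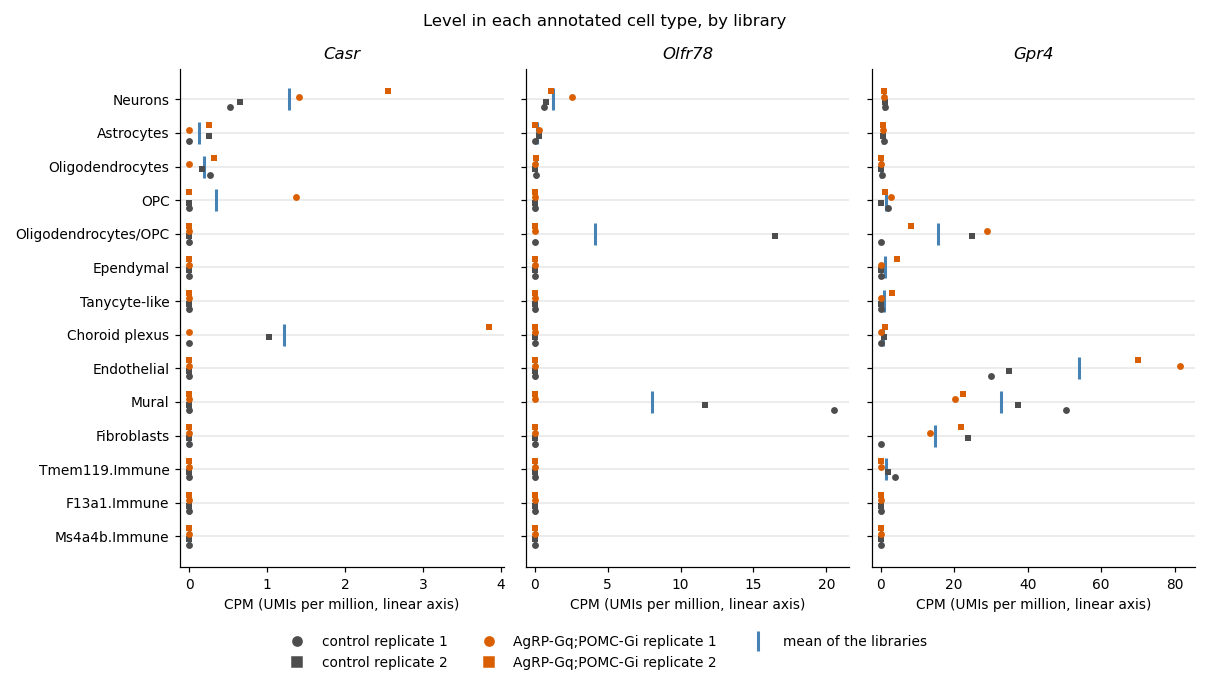
Level of each gene in the 14 cell types of the authors' annotation, in CPM on a linear axis, with 1 point per library and a bar at the mean of the 4 libraries. Each gene has its own axis. *Gpr4* lies highest in endothelial (mean 54.1 CPM) and mural cells (32.6 CPM). *Olfr78* has its highest mean in mural cells (8.06 CPM), from the control libraries alone. *Casr* is low everywhere, with a mean of 1.28 CPM over all neurons and its highest point, 3.84 CPM, in choroid plexus of AgRP-Gq;POMC-Gi replicate 2.

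*Casr* (ENSMUSG00000051980) lies on the minus strand of chromosome 16 at 36493696 to 36562141 of GRCm38, with its coding sequence between 36494470 and 36517786 in up to 6 exons. It was a gene of a single neuronal cluster above all, cluster 159, which the authors named after *Casr* and the noradrenaline transporter *Slc6a2*. Since the clusters were built from expression, its level there is a description and was not tested. The 50 nuclei of cluster 159 had 598, 125, 195 and 436 CPM of *Casr* in the 4 libraries, a mean of 339 ± 218 CPM from 5, 4, 25 and 76 UMIs. Every library was high, and the lowest of them lay above the highest library of any cluster next in order. The cluster held 110 of the 172 neuronal UMIs (64.0%), although only 3, 5, 18 and 24 of its nuclei came from the respective libraries.

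In cluster 159, 32 of 50 nuclei (64.0%, exact 95% binomial interval 49.2 to 77.1%) had a *Casr* UMI. Of these, 22 had at least 2 UMIs and 10 had at least 5. Nuclei with *Casr* were deeper than those without it, with medians of 6966 and 4843 UMIs, and after each nucleus was thinned to 2000 UMIs the share was 38.3%. Over all neurons the share was 0.574%, and over oligodendrocytes, read here as background, it was 0.0357% at a median of 2460 UMIs.

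The second cluster for *Casr* was cluster 97, named after *Gfral*, the receptor of the sickness signal GDF15, and the secretin receptor *Sctr*. It had 0, 65.8, 51.9 and 28.2 CPM of *Casr*, a mean of 36.5 ± 28.9 CPM from 34 UMIs in 18 of 101 nuclei (17.8%, interval 10.9 to 26.7%). Control replicate 1, which gave 7 of these nuclei, was the only library without a UMI. The level in cluster 159 was 9.28-fold that in cluster 97, and the 2 clusters together held 83.7% of the neuronal *Casr* UMIs. Of the other neuronal clusters 112 had none, and 17 had 1 UMI. The next levels, 22.2 CPM in cluster 146 (88.9, 0, 0 and 0 CPM, 5 UMIs in 2 nuclei) and 10.6 CPM in cluster 181 (0, 0, 24.7 and 17.9 CPM, 4 UMIs), overlapped with that of cluster 97, as did 2.91 CPM in cluster 56. Outside neurons, choroid plexus had 0, 1.03, 0 and 3.84 CPM, with 5 of its 8 UMIs in 1 nucleus and with both zeros from the libraries that held only 2 and 6 of its nuclei, and 9 of the 14 cell types had no *Casr* UMI at all.

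**Figure D2:**
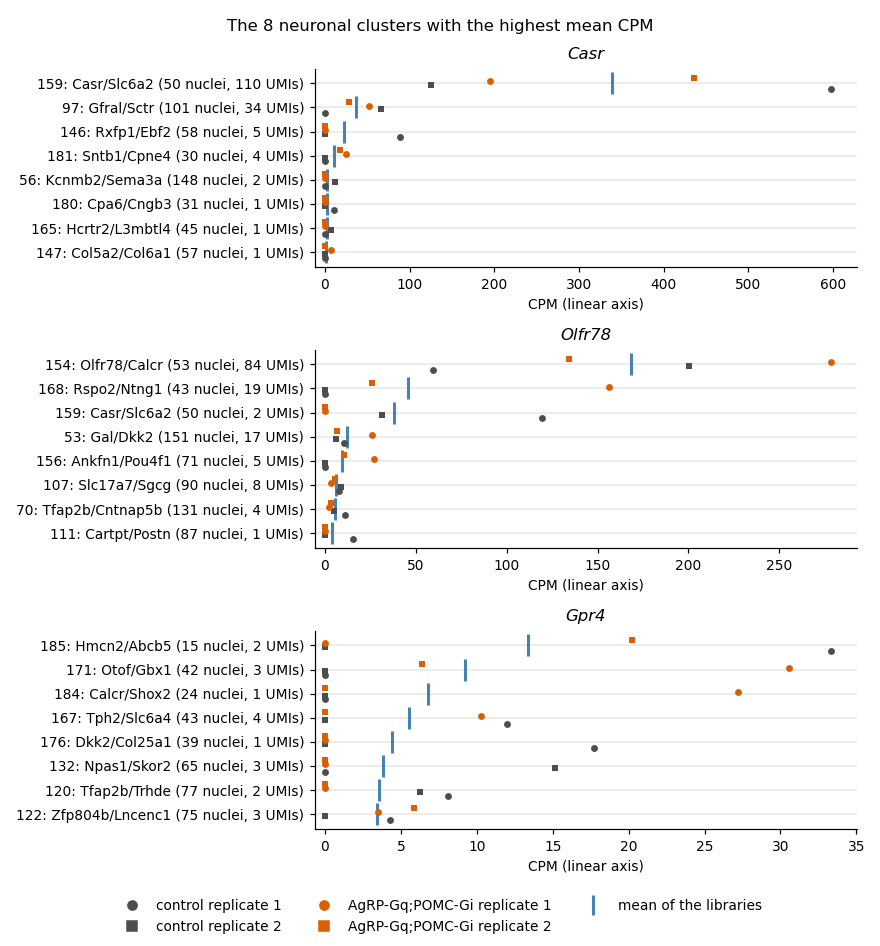
The 8 neuronal clusters with the highest mean level of each gene, in CPM on a linear axis, with 1 point per library and a bar at the mean. *Casr* falls from 339 CPM in cluster 159 to 36.5 CPM in cluster 97, *Olfr78* from 168 CPM in cluster 154 to 45.5 CPM in cluster 168, and no neuronal cluster rises above 13.4 CPM of *Gpr4*.

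The neurons of cluster 159 bore some of the catecholamine genes. Of 10 such genes 7 were detected, and 2 of them were at their highest level of all 134 clusters here. These were *Slc6a2* with 176 ± 67.8 CPM and the noradrenaline-forming enzyme *Dbh* with 88.1 ± 23.9 CPM, and the decarboxylase *Ddc*, at 455 ± 175 CPM, was second highest. Tyrosine hydroxylase, *Th*, which makes the first step of catecholamine synthesis, was found in only 5 of the 50 nuclei (16.4 ± 19.0 CPM, 7 UMIs, 0 in 2 of the 4 libraries). The vesicular monoamine transporter *Slc18a2* was found in 1 nucleus (2.00%), against 16.6% of all neurons. The glutamate transporter *Slc17a6* was present at 122 ± 30.1 CPM. The GLP-1 receptor *Glp1r* had its highest level here too (74.8 ± 37.3 CPM), among 7 of 10 area postrema neuron genes detected, with the calcitonin receptor *Calcr* at 36.1 CPM. Of 14 calcium hormone genes 6 were detected, led by *Ramp1*, a partner of calcitonin-family receptors, at 78.0 ± 110 CPM and ranked first of the clusters. The general neuronal gene *Rbfox3* was the lowest of all 134 clusters (13.4 ± 21.9 CPM), whereas the synaptic genes *Snap25* and *Syt1*, at 562 and 2690 CPM, ranked 114 and 10. Of the astrocyte markers, *Slc1a3* ranked first with 47.0 ± 56.1 CPM and *Aqp4* second with 21.0 ± 28.5 CPM, each found in 4 of the 50 nuclei, and *Gja1* and *Gfap* ranked 10 and 26. Their part in the levels of cluster 159 was not tested.

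Within cluster 159, *Slc6a2* was found in 21 of 32 nuclei with *Casr* (65.6%) and in 11 of 18 without it (61.1%), shares that lay close together. *Ddc* was found in 22 of 32 (68.8%) and 11 of 18 (61.1%). In cluster 97, *Gfral* was found in 15 of 18 nuclei with *Casr* (83.3%) and in 19 of 83 without it (22.9%), and *Ddc* in 18 of 18 and in 62 of 83 (74.7%). *Sctr*, the other gene of that name, went the other way, with 4 of 18 (22.2%) and 33 of 83 (39.8%). The depths of the 2 sets of nuclei in cluster 97 were close, at medians of 7316 and 6770 UMIs. These counts pool nuclei of all libraries and are given without a test. Cluster 97 as a whole had 316 ± 98.7 CPM of *Gfral*, 168 ± 119 CPM of *Sctr* and 417 ± 53.6 CPM of *Ddc*.

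**Figure D3:**
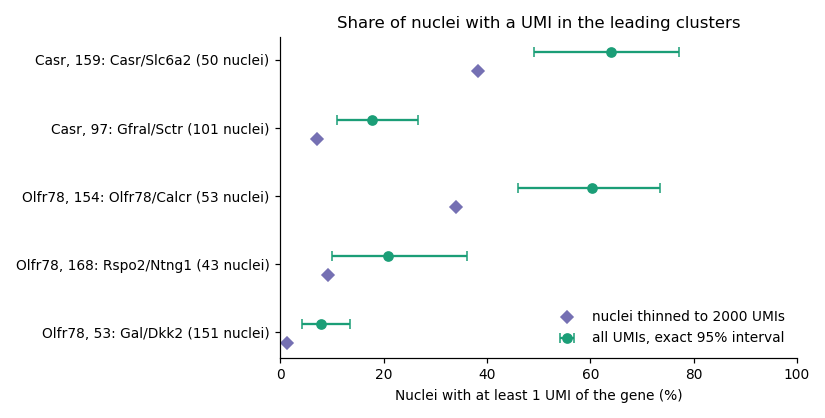
Share of nuclei with at least 1 UMI of the gene in its leading clusters, in percent, before and after thinning each nucleus to 2000 UMIs, with exact 95% binomial intervals for the unthinned share. Thinning lowers *Casr* in cluster 159 from 64.0% to 38.3% and *Olfr78* in cluster 154 from 60.4% to 34.0%, and leaves both above the other clusters.

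Of the class C receptors related to *Casr*, the taste receptor subunit *Tas1r1* had 1 UMI in cluster 159 (1.43 CPM) and the amino acid receptor *Gprc6a* none. Among proton and CO2 sensors, 8 of 14 were detected in cluster 159, led by the acid-sensing channel *Asic2* at 1440 CPM and with *Adcy10* at 18.5 CPM. Of 10 olfactory transduction genes 4 were detected, the stimulatory G protein *Gnal* at 117 CPM, *Ric8b* at 111 CPM and the channel subunit *Cngb1* at 44.6 CPM leading. Oxygen sensing genes were represented by 5 of 10, with the potassium channel subunit *Kcnmb2* at 197 CPM and the haem oxygenase *Hmox2* at 60.3 CPM, and glucose sensing genes by 7 of 9, with the transporter *Slc2a3* at 58.7 CPM. Across the 134 neuronal clusters, the genes whose log2 level followed that of *Casr* most closely were *Slc6a2* (Pearson r = 0.60), the MHC class II gene *H2-Eb1* (r = 0.58) and the aldehyde oxidase *Aox3* (r = 0.54). All 3 were highest in cluster 159, so the likeness rests on it, and the clusters share libraries and differ in depth.

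*Olfr78* (ENSMUSG00000043366) lies on the minus strand of chromosome 7 at 102738511 to 102759471, with its coding sequence in 1 exon at 102742042 to 102743001. Another olfactory receptor gene on the same strand, *Olfr560* (ENSMUSG00000110008, 102751818 to 102759366), lies within its span. The annotated exons of the 2 genes share 926 bases, 42.7% of the 2168 exon bases of *Olfr560* and 15.3% of the 6033 of *Olfr78*. *Olfr560* has 2 coding transcripts with up to 2 coding exons, and its coding sequence, between 102752986 and 102759318, does not overlap that of *Olfr78*. For 1 transcript of each gene, with 942 coding bases in *Olfr560* and 960 in *Olfr78*, the coding sequences had 61.6% identity over 985 aligned columns and no common word of 30 bases. The first 60 coding bases of these transcripts, read from the GENCODE transcripts of GRCm38 on the minus strand with the start codon in capitals, are shown to set the receptors apart:
Olfr78 (chr7:102742942-102743001): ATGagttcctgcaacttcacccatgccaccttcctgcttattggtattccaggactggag
Olfr560 (chr7:102753868-102753927): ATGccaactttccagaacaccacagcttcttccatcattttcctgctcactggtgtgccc

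*Olfr78* was highest in cluster 154, which the authors named after it and *Calcr*. Its 53 nuclei had 59.2, 200.4, 279 and 134 CPM, a mean of 168 ± 93.5 CPM from 2, 6, 52 and 24 UMIs, and no library lacked it. The cluster held 84 of the 166 neuronal UMIs (50.6%). In it 32 of 53 nuclei (60.4%, interval 46.0 to 73.5%) had an *Olfr78* UMI, 19 of them at least 2, and after thinning the share was 34.0%. Over all neurons the share was 0.750%, and over oligodendrocytes 0.0119%.

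Next came cluster 168, named after *Rspo2* and *Ntng1*, with 45.5 ± 74.8 CPM. Its level rested on AgRP-Gq;POMC-Gi replicate 1, with 0, 0, 156 and 25.8 CPM and 16 of its 19 UMIs from that library, and its highest library lay above the lowest of cluster 154. Cluster 159 followed with 37.7 CPM from only 2 UMIs, both in control libraries. The *Gal*/*Dkk2* neurons of cluster 53 had 10.6, 5.97, 25.7 and 6.77 CPM (12.3 ± 9.17 CPM, 17 UMIs, 7.95% of 151 nuclei), and cluster 156 had 0, 0, 27.2 and 10.4 CPM. Cluster 107, at 7.96, 8.87, 3.05 and 5.47 CPM, had a low level with a UMI in every library. From the second place down, the levels overlapped between neighbours. The gene was not detected in 105 of the 134 neuronal clusters, and 3 clusters had 10 or more UMIs.

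The neurons of cluster 154 bore calcitonin-family receptor genes and galanin. They had 263 ± 154 CPM of *Calcr* and 71.7 ± 11.9 CPM of *Ramp3*, which with *Calcr* forms an amylin receptor and was at its highest of all clusters here, among 7 of 14 calcium hormone genes. *Slc17a6* stood at 201 ± 79.9 CPM and the neuropeptide galanin, *Gal*, at 200.3 ± 92.1 CPM. *Ddc* was at 36.2 ± 8.22 CPM, below its 455 CPM in cluster 159, and *Casr* was at 0. Of 12 metabolite receptors *Olfr78* was the only one detected. The acid-sensitive potassium channel *Kcnk3*, which also serves in oxygen-sensing glomus cells, was at its highest (38.4 ± 28.7 CPM, 9 UMIs) and the oxygen-regulated factor *Hif1a* ranked 3 of 134 (68.9 ± 67.8 CPM), among 9 of 14 proton and CO2 genes and 5 of 10 oxygen sensing genes. Of olfactory transduction genes 5 of 10 were detected, with the G-protein chaperone *Ric8b* at 103 CPM, *Adcy3* at 41.2 CPM and *Gnal* at 39.2 CPM, the last ranked 133 of 134 clusters. Glucose sensing genes numbered 5 of 9.

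*Olfr560* followed *Olfr78* more closely than any other of 18972 genes compared, with r = 0.74 over the 134 neuronal clusters, and it too was highest in cluster 154 (98.0 CPM, 46 of its 74 neuronal UMIs). Of the 32 nuclei with *Olfr78* in that cluster 15 also had *Olfr560* (46.9%), against 3 of 21 without it (14.3%), at close median depths of 7707 and 7512 UMIs. Over all neurons it was 27 of 94 (28.7%) against 12 of 12445. Because the genes share exon bases on 1 strand, counts of 1 may hold transcripts of the other, and how reads in the shared bases were assigned was not tested. The next most alike were *Pirt*, a regulator of TRP channels (r = 0.53), and the bradykinin receptor *Bdkrb2* (r = 0.50), both highest in cluster 159. *Calcr* was found in 21 of 32 nuclei with *Olfr78* (65.6%) and 12 of 21 without it (57.1%), *Ramp3* in 9 (28.1%) and 11 (52.4%), and *Ddc* in 12 (37.5%) and 2 (9.52%). Of the 72 neurons with *Casr* 1 also had *Olfr78* (1.39%), against 93 of 12467 without *Casr* (0.746%).

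The 5 leading clusters of *Casr* and *Olfr78* shared *Ddc*, a pattern seen after the values were known. It lay between rank 2 and rank 10 of the 134 clusters in them, from 455 CPM in cluster 159 to 36.1 CPM in cluster 53. They also bore *Slc17a6*, between 96.0 CPM in cluster 168 and 225 CPM in cluster 97. The inhibitory transporter *Slc32a1* did not exceed 9.69 CPM in any of them. *Gal* was highest of all clusters in cluster 53, at 453 ± 297 CPM.

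Outside neurons *Olfr78* was found mainly in mural cells, in the cluster that bore smooth muscle actin. Mural cells had 20.6, 11.7, 0 and 0 CPM (8.06 ± 9.98 CPM), and all 16 of their UMIs lay in 10 of the 100 nuclei of cluster 98, at 157, 70.5, 0 and 0 CPM. The other mural cluster, cluster 13, had no UMI in 706 nuclei, which allows a share of nuclei with a UMI of up to 0.425% at a median of 1503 UMIs and sets no limit on nuclei that express the gene. Cluster 98 bore the smooth muscle actin *Acta2* at 1407 ± 785 CPM against 1.24 CPM in cluster 13, whereas the pericyte genes *Abcc9* (210 against 2046 CPM) and *Kcnj8* (87.4 against 565 CPM) were lower. *Rgs5* and *Pdgfrb*, shared by both mural types, stood at 1009 and 1160 CPM against 1393 and 1861 CPM. *Olfr558*, a related olfactory receptor for short-chain fatty acids, shared this place, with 143, 141, 189 and 41.4 CPM in cluster 98 (129 ± 62.2 CPM, 23 UMIs) against 0.537 CPM in cluster 13. The other UMIs of *Olfr78* outside neurons were 2 in 1 nucleus annotated between oligodendrocytes and their precursors, 2 in astrocytes and 2 in oligodendrocytes. That 1 nucleus put its type at 16.5 CPM in control replicate 2, above the 11.7 CPM of mural cells there, and at a mean of 4.13 CPM over the libraries.

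*Gpr4* (ENSMUSG00000044317) lies on the plus strand of chromosome 7 at 19212538 to 19224174, with its coding sequence in 1 exon at 19222155 to 19223249. It was highest in the vessel wall. Endothelial cells had 30.0, 34.9, 81.5 and 70.0 CPM (54.1 ± 25.5 CPM, 64 UMIs), with a UMI in 7.73% of 789 nuclei and in 3.93% after thinning to 800 UMIs. Mural cells had 50.4, 37.4, 20.3 and 22.4 CPM (32.6 ± 14.1 CPM, 52 UMIs), with a UMI in 6.08% of nuclei. The levels of these 2 cell types overlapped. Fibroblasts followed with 0, 23.9, 13.5 and 22.0 CPM (14.8 ± 10.9 CPM), and the nuclei annotated between oligodendrocytes and their precursors with 0, 24.8, 28.9 and 8.27 CPM, from 9 UMIs in 6 of 123 nuclei. Every endothelial library lay above every library of those 2 types. Microglia with *Tmem119* had 1.44 CPM, astrocytes 0.618 CPM and oligodendrocytes 0.184 CPM.

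Endothelial nuclei bore the markers of their label, since *Flt1*, *Cldn5*, *Pecam1* and *Tek* together made 7315, 5686, 7524 and 7319 CPM in the 4 libraries, against 353 CPM in mural cells. All 6 endothelial clusters held *Gpr4*, between 26.2 CPM in cluster 164 and 69.5 ± 39.2 CPM in cluster 24. In mural cells, cluster 13 had 58.0, 42.0, 14.6 and 20.6 CPM, and cluster 98 had 0, 14.1, 94.5 and 41.4 CPM from only 3 UMIs. Over the 14 cell types, a comparison added later, the levels most like that of *Gpr4* were those of *Tnfaip8l1* (r = 0.95), *Gm33524* (r = 0.93) and thrombomodulin, *Thbd* (r = 0.93), an anticoagulant receptor of endothelium.

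**Figure D4:**
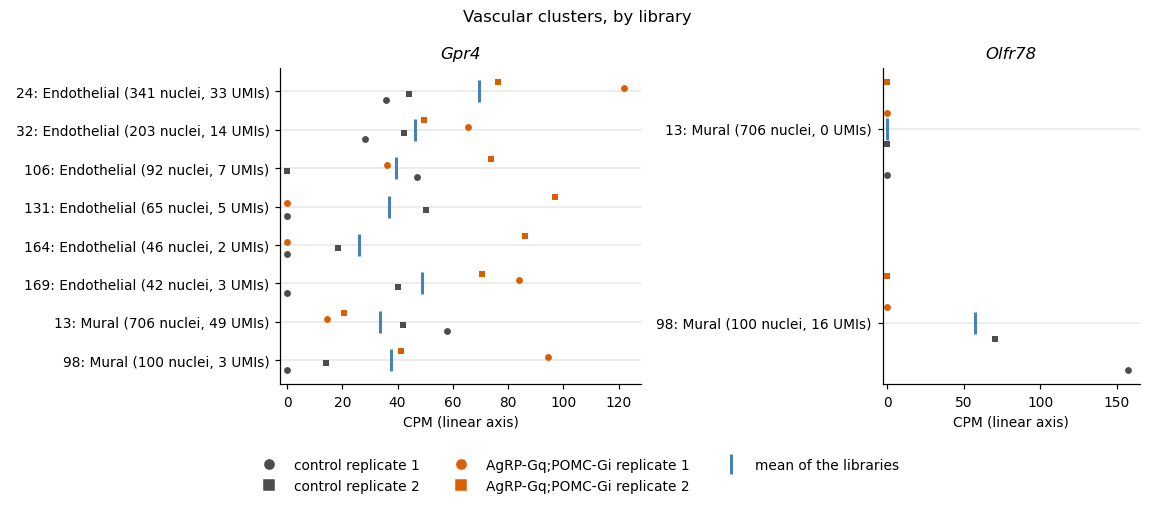
Level of *Gpr4* in the endothelial and mural clusters and of *Olfr78* in the mural clusters, in CPM on a linear axis, with 1 point per library, a bar at the mean, and the nuclei and UMIs of each cluster in its label. Of the 2 mural clusters only cluster 98 holds *Olfr78*, at 157 and 70.5 CPM in the control libraries and 0 in the others, while *Gpr4* is spread over all endothelial clusters and both mural clusters.

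In neurons *Gpr4* was thin and without a leading cluster. It had 1.23, 1.17, 0.843 and 0.794 CPM (1.01 ± 0.221 CPM), with a UMI in 121 nuclei (0.965%) at a median of 8704 UMIs, and in 0.0535% of oligodendrocytes at a median of 2460 UMIs. No neuronal cluster had 10 UMIs, 67 of 134 had none, and the median cluster stood at 0.121 CPM. The highest means came from small clusters with few UMIs, 13.4 CPM in cluster 185 from 2 UMIs in 15 nuclei, 9.25 CPM in cluster 171 from 3, 6.81 CPM in cluster 184 from 1 and 5.55 CPM in the serotonin neurons of cluster 167, named after *Tph2* and *Slc6a4*, from 4. At this depth, an order among them could not be told. Whether neurons of the retrotrapezoid nucleus were among those sampled was not tested. Cluster 46 had a low level of 3.29 ± 1.38 CPM from 6 UMIs, with a UMI in each library. The genes most like it over the clusters reached only r = 0.40 for *B3galt6*, 0.39 for *Gm37853* and 0.38 for *Zfp217*, which at so few UMIs is a weak likeness.

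The endothelial markers stood at 67.7 CPM in neurons, of which *Tek* alone made 59.4 CPM. For 10 UMIs of *Cldn5*, the endothelial tight junction gene, neurons had 6.58 UMIs of *Gpr4*, endothelial cells 0.650, oligodendrocytes 0.520, astrocytes 2.04, mural cells 23.6 and fibroblasts 40.0. All but oligodendrocytes thus lay above endothelial cells, with few UMIs of either gene in astrocytes and fibroblasts. The source of the few UMIs in neurons was not tested.

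Between the groups, *Casr* and *Olfr78* were higher over all neurons of the AgRP-Gq;POMC-Gi libraries, and neither passed the test across all genes. *Casr* had 0.521, 0.656, 1.41 and 2.55 CPM over all neurons, from 14, 18, 50 and 90 UMIs. Both AgRP-Gq;POMC-Gi libraries lay above both control libraries. The difference was 1.79 on the log2 scale (SE 0.36), with adjusted p = 0.818 by edgeR's quasi-likelihood test with Benjamini-Hochberg adjustment over 22919 genes. It was 1.97 without control replicate 2, which leaves 1 control library. *Olfr78* had 0.596, 0.729, 2.53 and 1.13 CPM. Its groups did not overlap either, and the difference was 1.53 (SE 0.46), adjusted p = 0.856 by edgeR. It passed without AgRP-Gq;POMC-Gi replicate 2 (2.04, adjusted p = 0.00998 by edgeR), and leaving out AgRP-Gq;POMC-Gi replicate 1 gave 0.78. *Gpr4*, at 1.23, 1.17, 0.843 and 0.794 CPM, was lower in both AgRP-Gq;POMC-Gi libraries, by a log2 difference of -0.49 (SE 0.28), adjusted p = 0.856. Of the 4 endothelial markers *Flt1* was lower in neurons too, by -0.96, but the median of the 4 was 0.01. The 3 oligodendrocyte markers were lower, with a median of -0.71. None of these was called, and their part in the *Gpr4* difference was not tested.

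No member was called in neurons, where 0.00436% of all genes were called at an adjusted p under 0.05. That is 1 gene, *Hsd11b2*, the enzyme that inactivates glucocorticoids in aldosterone target cells, with 0.596, 0.401, 8.21 and 8.87 CPM. DESeq2 called 12 genes, none of the 3 members among them. The groups did not overlap, with the AgRP-Gq;POMC-Gi libraries higher, for 12.2% of all genes, and lower for 24.6%. A separation of 2 libraries from 2 was thus common among all genes.

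The higher *Casr* and *Olfr78* over neurons came with larger leading clusters. Cluster 159 made 0.121, 0.183, 0.487 and 0.660% of the neurons of the 4 libraries, and cluster 154 made 0.121, 0.146, 0.676 and 0.577%. Without the nuclei of cluster 159 *Casr* stood at 0.335, 0.511, 0.705 and 0.399 CPM, and without clusters 159 and 97 at 0.336, 0.183, 0.228 and 0.172 CPM. The groups then overlapped. Without cluster 154 *Olfr78* stood at 0.522, 0.511, 1.07 and 0.456 CPM, and without clusters 154, 168 and 53 at 0.453, 0.478, 0.344 and 0.262 CPM. The clusters left out were picked for their UMIs of the same gene, and most of those came from the AgRP-Gq;POMC-Gi libraries. Leaving them out thus lowers that group more by construction, and what remains does not test where the difference lies. In sums over all neurons, more nuclei of a type and more RNA per nucleus cannot be told apart. Cluster 97 also held more of the AgRP-Gq;POMC-Gi neurons (0.283, 0.621, 1.08 and 1.02%), and so did cluster 53 (0.688, 0.694, 1.16 and 1.98%), whereas cluster 168 did not (0.445, 0.183, 0.298 and 0.440%). Whether the dissection took more of the area postrema in the AgRP-Gq;POMC-Gi libraries was not tested.

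**Figure D5:**
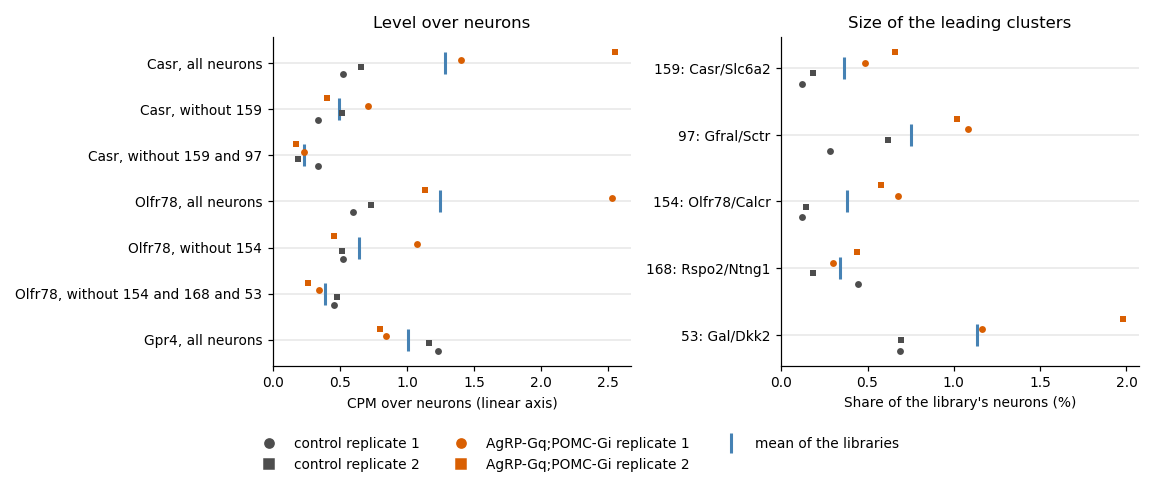
Left, CPM of the genes over all neurons of each library, with and without the nuclei of their leading clusters, on a linear axis. Right, the share of each library's neurons in those clusters, in percent. Over all neurons *Casr* is at 0.521 and 0.656 CPM in control libraries and 1.41 and 2.55 CPM in the others, without clusters 159 and 97 it lies at 0.172 to 0.336 CPM, and cluster 159 makes 0.121 and 0.183% against 0.487 and 0.660% of neurons.

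Other genes of the area postrema did not pass the test over all neurons either. Of 10 area postrema neuron genes 9 were tested, none was called, and the median difference was 0.71 on the log2 scale, against 0.00 over all genes. *Htr3a*, a serotonin-gated channel, differed by 1.92, *Sctr* by 1.23, *Ramp3* by 0.97 and *Gfral* by 0.71, and these and *Casr* were the 5 with an unadjusted p under 0.05, which 5.38% of all genes in neurons had. The list holds *Casr* itself. Catecholamine genes had a median of 0.34 over 8 tested, with *Slc6a2* at 1.48 and *Dbh* at 0.99, and none was called.

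The remaining lists lay nearer to the median of all genes, again with none called in neurons. The medians were -0.04 over 13 proton and CO2 sensing genes, 0.31 over 5 metabolite receptors, 0.25 over 3 class C receptors, 0.24 over 11 calcium hormone genes and 0.01 over 8 olfactory transduction genes. They were -0.23 over 10 oxygen sensing genes, 0.05 over 9 glucose sensing genes, 0.12 over 10 transmitter genes and 0.10 over 8 retrotrapezoid neuron genes.

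Inside the leading clusters the receptors did not pass the test. *Casr* in cluster 159 differed by 0.83 (SE 0.69), adjusted p = 0.858 by edgeR, its groups overlapped, and the direction turned when control replicate 2 (-0.004) or AgRP-Gq;POMC-Gi replicate 2 (-0.20) was left out. Control replicates 1 and 2 had 3 and 5 nuclei in this cluster. *Casr* in cluster 97 differed by 0.06 (SE 0.71), adjusted p = 0.999 by edgeR, and the direction turned when control replicate 1 (-0.57) or AgRP-Gq;POMC-Gi replicate 1 (-0.53) was left out. It was 0.43 when AgRP-Gq;POMC-Gi replicate 2 was left out, and leaving out control replicate 2 put its only remaining control library at 0. *Olfr78* in cluster 154, with its overlapping 59.2, 200.4, 279 and 134 CPM, differed by 0.97 (SE 0.62), adjusted p = 0.838, and in cluster 53 by 0.82 (SE 1.00), adjusted p = 0.997. In cluster 154 the difference was 0.27 and 2.02 when control replicates 1 and 2 were left out, and 0.16 and 1.23 when AgRP-Gq;POMC-Gi replicates 1 and 2 were. In cluster 53 it was 1.33 and 0.47 when control replicates 1 and 2 were left out. Leaving out AgRP-Gq;POMC-Gi replicate 2 gave 1.64, and leaving out AgRP-Gq;POMC-Gi replicate 1 gave no value. In cluster 168, *Olfr78* was at 0 in both control libraries and at least 5.15-fold higher in the AgRP-Gq;POMC-Gi group, against a floor of 3 UMIs over the control group, with adjusted p = 1.00 by edgeR. This bound rests on single libraries, and fell to 1.39 without control replicate 1, while without AgRP-Gq;POMC-Gi replicate 1 only 3 UMIs, 25.8 CPM, stood against the floor of 16.9 CPM. It was 9.26 without AgRP-Gq;POMC-Gi replicate 2. There 16.1% of all genes had both AgRP-Gq;POMC-Gi libraries higher. *Olfr560*, which shares exon bases with *Olfr78*, had 0, 0, 39.1 and 34.4 CPM in cluster 168, from 8 UMIs. Over all neurons it had 0.112, 0.328, 0.843 and 0.907 CPM. Its groups overlapped in cluster 154 (0, 167, 107 and 118 CPM) and in mural cells (1.87, 2.33, 0 and 3.74 CPM, 3 UMIs). The part of *Olfr560* in the *Olfr78* differences was not tested.

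These clusters held few calls of any kind. At an adjusted p under 0.05, 0% of genes were called in clusters 159, 154 and 168, where 395, 413 and 227 genes had an unadjusted p under 0.05 and DESeq2 called 0. In cluster 97 it was 0.0425% and in cluster 53 0.018%. With 3 to 5 control nuclei in clusters 159 and 154, a change within them may be missed.

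In the vessel wall *Gpr4* was higher in endothelial cells of the AgRP-Gq;POMC-Gi libraries and lower in their mural cells. Its endothelial levels of 30.0 and 34.9 CPM in control libraries lay below the 81.5 and 70.0 CPM of the AgRP-Gq;POMC-Gi libraries. The difference was 1.16 (SE 0.38), with adjusted p = 0.786 by edgeR over 11586 genes. The groups were separated in this direction for 17.8% of all genes, and 0% of genes were called, with 581 at an unadjusted p under 0.05 and 0 called by DESeq2. For 100 UMIs of the endothelial markers, *Gpr4* had 0.410, 0.613, 1.08 and 0.956 UMIs, so its separation was also seen against these. For 10 UMIs of *Cldn5* alone the values lay closer together, at 0.447, 0.598, 0.875 and 0.734. Of the 4 endothelial markers *Cldn5* was itself higher, by 0.56, and of the 4 astrocyte markers *Gja1* was lower, by a log2 difference of -1.88 (98.1, 123, 17.5 and 37.9 CPM). *Pdgfra* of the oligodendrocyte precursor markers had 13.6, 16.3, 0 and 2.91 CPM from 13 UMIs. These 3 had an unadjusted p under 0.05, and none was called. Their part in the *Gpr4* difference was not tested. In cluster 24 alone it had 35.7 and 44.0 CPM in control libraries and 122 and 76.2 CPM in the others (1.20, SE 0.55, adjusted p = 0.899 by edgeR), with 16.8% of genes separated in this direction and 0.0477% called.

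In mural cells *Gpr4* did not pass the test either, with a difference of -1.02 (SE 0.51), adjusted p = 0.872 by edgeR, and 18.9% of all genes had both AgRP-Gq;POMC-Gi libraries lower. Of the cell type markers tested in mural cells, 4 had an unadjusted p under 0.05 and none was called. *Pecam1* of endothelial cells had 24.3, 0, 0 and 0 CPM, whereas *Gfap* of astrocytes (9.34, 4.67, 67.6 and 3.74 CPM), *Syt1* of neurons and *Mog* of oligodendrocytes differed by 1.93, 0.80 and 0.69 on the log2 scale. Their part in the *Gpr4* difference was not tested. *Olfr78* was at 0 in both AgRP-Gq;POMC-Gi libraries, at least 2.30-fold lower than the 16.6 CPM of the pooled control nuclei, with adjusted p = 0.401 by edgeR. The bound was 1.48 without AgRP-Gq;POMC-Gi replicate 1. Leaving out AgRP-Gq;POMC-Gi replicate 2 put the floor, 20.3 CPM, above the control level, so that no bound was left. Mural cells had 0.259% of genes called, the 2 receptors not among them. Cluster 98, the source of all mural *Olfr78*, had 38 and 40 control nuclei but 7 and 15 from the AgRP-Gq;POMC-Gi group. These made 13.1, 15.9, 6.80 and 9.20% of the mural nuclei of the libraries. Within cluster 98 the pooled control level was only 1.32-fold the floor. It lay below the floor without control replicate 1, AgRP-Gq;POMC-Gi replicate 1 or AgRP-Gq;POMC-Gi replicate 2. The adjusted p was 0.648 by edgeR, with 23.8% of genes separated in this direction and 0% called (266 at an unadjusted p under 0.05, 0 by DESeq2). Fewer nuclei of cluster 98 came with the lower mural *Olfr78*, and their part in it was not tested.

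Of the listed genes only *Kcnmb2* was called in any cell type or cluster tested, and it was in mural cells. It had 9.34, 4.67, 0 and 116 CPM there, from 38 UMIs in 6 nuclei, and its groups overlapped. The difference was 3.21 (SE 0.73), adjusted p = 0.0490 by edgeR, and 1.00 by DESeq2. Without AgRP-Gq;POMC-Gi replicate 2 the gene was below the minimum of 10 UMIs and had no value. In fibroblasts *Gpr4* differed by -0.02 (SE 0.68, adjusted p = 1.00 by edgeR), where 0% of genes were called, with 413 at an unadjusted p under 0.05 and 2 called by DESeq2. The direction in fibroblasts turned without AgRP-Gq;POMC-Gi replicate 1 (0.26) and by DESeq2 (0.36), and leaving out control replicate 2 put the remaining control library at 0. It stayed negative when control replicate 1 (-0.41) or AgRP-Gq;POMC-Gi replicate 2 (-0.32) was left out. In astrocytes it differed by -0.28 (SE 0.90, adjusted p = 0.962), where 0.325% of genes were called.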

How the data were processed

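Nuclei of 4 libraries were isolated from frozen hindbrain, sorted by DRAQ5 and sequenced with the 10x Genomics 3′ kit. The authors mapped reads to GRCm38 with Cell Ranger 7.0.0, and the deposited matrices hold UMI counts, not normalized, for 44303 barcodes. Their deposited table of nuclei gives the kept nuclei, the mitochondrial share in percent, the cluster and the cell type. They filtered in Seurat 4.3.0 at 800 UMIs, 500 genes and 10% mitochondrial RNA, removed doublets at an assumed rate, and clustered an scVI embedding adjusted for library. Their clusters and cell types were used as given.

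UMIs were summed per library and cell type or cluster, so that nuclei never counted as replicates, and divided by all UMIs of these nuclei. The groups were compared with edgeR 4.0.16 (quasi-likelihood test, TMM factors, R 4.3.3) over all genes with at least 10 UMIs, in units with at least 5 nuclei in every library or added later (clusters 159, 154, 98 and 24), with Benjamini-Hochberg adjustment at 0.05. The study itself used a mixed model over nuclei. Alternatives left out 1 library at a time, blocked on the replicate number, used DESeq2 1.42.0 or library size alone, or required detection in 5% of nuclei. Differences are AgRP-Gq;POMC-Gi minus control. The code was tested on simulated data.

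Shares have exact Clopper-Pearson 95% intervals, which, like floors of 3 UMIs or nuclei, cover counting error only. A ratio to a floor takes the level of the other group as counted, without its counting error. Nuclei were thinned to 2000 UMIs for clusters and 800 for cell types. Likeness is Pearson's r of log2(mean CPM + 1) over genes with at least 50 UMIs, counted in neurons for clusters and in all kept nuclei for cell types. Named were the 3 most alike genes of each receptor, up to 3 leading genes of each list in its highest cluster, any list gene called, and the highest clusters. Other named genes, the markers of cluster 98 and *Hsd11b2* were chosen after their values were seen. The receptors and the gene lists were chosen with earlier results of these data known. Gene models are those of GENCODE M21, and overlaps and sequences were read from GRCm38 with Biopython 1.88. The other software was matplotlib 3.10.9, scipy 1.17.1, pandas 2.3.3 and numpy 2.4.6 under Python 3.11.15. Protein sequences were not used here. Values of some listed genes are not reported here.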

Additional observations from a re-analysis of the deposited data

Results flagged for a closer look

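The group difference of *Gpr4* pointed up in endothelial and down in mural cells, without passing the test in either. It was 1.16 on the log2 scale in endothelial cells and -1.02 in mural cells, and the mural minus endothelial difference was -2.14 (SE 0.64). Its unadjusted and adjusted p-values were 0.00336 and 0.667 by edgeR over 10407 genes, of which 6 were called. The pair of cell types is given because its groups separated in opposite directions in these libraries. The same held for endothelial cells and neurons, a pair that was not tested. The unadjusted p for endothelial and mural cells is thus not that of a question set in advance. In both cell types all libraries of 1 group lay above all of the other, which held in the same direction for 17.8% of all genes in endothelial cells and 18.9% in mural cells, and the difference failed the correction over all genes.

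The group difference of *Olfr78* pointed up in neurons and down in mural cells. The test of the difference gave unadjusted and adjusted p-values of 0.000234 and 0.108 by edgeR over 11558 genes, of which 17 were called. It rests on 16 mural UMIs, all in control libraries. This pair of cell types is also given because its groups separated in opposite directions in the same libraries, so its unadjusted p is not that of a question set in advance.

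Barcodes that the authors left out, 4842 in all, held 9 UMIs of *Casr* in 5 barcodes. The control libraries had 0 and the AgRP-Gq;POMC-Gi libraries 4 and 5, that is 0.622 and 0.648 CPM. These barcodes were not split by cell type. All kept nuclei together had the same direction, at 0.363, 0.470, 0.999 and 1.88 CPM. Neurons, which held most UMIs of *Casr* and *Olfr78*, made 25.4, 27.2, 38.0 and 36.5% of the kept nuclei, and the part of this was not tested. How many of all genes were separated in the left-out barcodes or over all kept nuclei was not counted. *Olfr78* had 15 UMIs in these barcodes, at 0.527, 0.519, 0.466 and 0.518 CPM. It did not share the direction of all kept nuclei, which had 0.564, 0.573, 1.78 and 0.772 CPM. *Gpr4* had 47 UMIs, at 2.11, 1.95, 0.933 and 1.30 CPM.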

How the results depend on the processing

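Over all neurons, the count of called genes, 1 by edgeR, was 12 by DESeq2, 0 among genes detected in 5% of nuclei, 303 with the replicate number as a block, and 12 to 1524 when a library was left out, most without AgRP-Gq;POMC-Gi replicate 2. With the replicate block, *Casr* in neurons (1.77, adjusted p = 0.000211 by edgeR), *Olfr78* in neurons (1.46, adjusted p = 0.00578) and *Olfr78* in cluster 168 (a fitted 6.65 against a group at 0, no bound, adjusted p = 0.0302) were called. The labels do not tie the replicate numbers to shared mice or days, but choroid plexus nuclei (2, 436, 6 and 329) and their RNA were high in replicate 2 of both groups, and their part in the blocked calls was not tested. The deviations of same-numbered libraries correlated at 0.0206 over neurons and between -0.149 and 0.230 over the units tested. Of 9 alternatives with a value, 2 called *Casr* over neurons and 2 called *Olfr78* over neurons, the replicate block among them for each. When a library was left out, *Casr* in neurons ranged from 1.36 to 2.12, *Olfr78* in neurons from 0.78 to 2.04 and *Olfr78* in cluster 168 from 6.01 to 6.93.

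*Gpr4* in fibroblasts turned to 0.36 by DESeq2, 0.38 with the replicate block and 0.14 with crossed numbers, an alternative chosen after seeing the data under which 100 genes were called in fibroblasts, and ranged from -0.41 to 5.63 without a library. *Casr* in cluster 97 turned to -0.073 without TMM factors and ranged from -0.57 to 6.24, and *Casr* in cluster 159 ranged from -0.20 to 1.55. The causes were not tested. At 2000 UMIs a nucleus the shares were 38.3% for *Casr* in cluster 159 and 34.0% for *Olfr78* in cluster 154. *Gpr4* kept its direction in neurons, endothelial cells, mural cells and cluster 24 under every alternative that gave a value, and no alternative called it. The receptors fell below the 5% detection minimum over neurons and had no value there.

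Counts of called genes in the other units ran from 50 to 305 in astrocytes (55 in the reported fit), 4 to 89 in mural cells (30), 0 to 64 in endothelial cells, 0 to 100 in fibroblasts and 0 to 39 in the tested clusters. Without TMM factors, 18 of 81 astrocyte calls were higher in place of 25 of 55, and 0 of 1 in cluster 97 in place of 2 of 4. With 2 libraries a group and 172, 166 and 123 neuronal UMIs of the receptors, depth limits every cluster value.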
